A study of Caenorhabditis elegans with 3 samples.

Results

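The regions described here are 452 strong PQM-1 binding peaks with summits between genes and outside promoter windows, in whole first-stage larvae (L1) of the nematode Caenorhabditis elegans. They were selected on signal and position: of the 30000 peaks of the pooled list the 2000 highest by signal were taken, and a peak was kept when its summit lay in no annotated gene body other than a piRNA gene. The summit also had to lie outside every promoter window, which reached from 1000 bp before to 200 bp past any 5′ end of a protein-coding transcript. Only the summit was judged, and 354 of the 452 peaks had every base outside these gene bodies and windows. The 452 peaks were 22.6% of the 2000. Of the other 1548, 1036 (51.8%) had the summit in a promoter window and 512 (25.6%) in a gene body. They are called distal intergenic peaks below, and each is named by its rank in the pooled list, 1 being the highest signal.

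The study was a chromatin immunoprecipitation and sequencing (ChIP-seq) experiment with 1 group of 3 biological replicates, so comparisons are between peaks and between replicates. The worms were strain OP201, of mixed sex, with the genotype unc-119(tm4063) III; wgIs201. The transgene wgIs201 expresses PQM-1 with GFP and FLAG fused to its C-terminus, so the peaks are those of the tagged protein in a transgenic line, over all cell types of the larva. All worms carried both the unc-119 allele and the transgene, and no group without them was compared. The replicates are named by the labels as biological, and whether they were separate cultures is not said. The files give no read counts, so the depth behind a peak is unknown, and intervals below cover the counting of peaks only.

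PQM-1 is a zinc-finger transcription factor known for its antagonism with the FOXO factor DAF-16 downstream of insulin signalling, where it acts through the extended GATA word TGATAAG. Factors of the GATA class such as ELT-2, the main regulator of intestinal genes, bind the shorter word family written WGATAR, in which W is adenine or thymine and R adenine or guanine. Enhancers of worms often lie close to the genes they serve, and peaks far from promoters are candidates for such elements, although a peak alone does not show that an element acts.

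The summit windows of the 5 highest peaks are shown first, because they carry the words on which the results turn. Each reaches 50 bases to either side of the summit and comes from the RefSeq copy of assembly WBcel235, which is ce11. Capitals mark WGATAR words on either strand.
Peak 1, 6375 bp upstream of Y37A1A.2, chrIV:13919354-13919454 (+ strand): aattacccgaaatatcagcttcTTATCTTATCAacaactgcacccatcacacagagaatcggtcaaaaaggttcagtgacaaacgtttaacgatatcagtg
Peak 4, 4894 bp upstream of let-418, chrV:5821889-5821989 (+ strand): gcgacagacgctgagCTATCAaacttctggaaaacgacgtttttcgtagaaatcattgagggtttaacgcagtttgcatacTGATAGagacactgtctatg
Peak 6, 2432 bp upstream of laat-1, chrII:240203-240303 (+ strand): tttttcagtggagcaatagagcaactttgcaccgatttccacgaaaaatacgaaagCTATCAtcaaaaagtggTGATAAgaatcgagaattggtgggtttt
Peak 10, 2362 bp downstream of the 5′ end of zig-13, chrIII:154333-154433 (+ strand): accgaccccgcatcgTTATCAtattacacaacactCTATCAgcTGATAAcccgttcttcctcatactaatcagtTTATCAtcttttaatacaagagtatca
Peak 12, 3855 bp upstream of C08E8.3, chrV:18346224-18346324 (+ strand): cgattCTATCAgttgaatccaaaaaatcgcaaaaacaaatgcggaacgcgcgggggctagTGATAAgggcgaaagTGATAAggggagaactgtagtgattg
All 5 windows held at least 2 WGATAR words, with 4 in the window of peak 10. TGATAAG was in the windows of peaks 1, 6 and 12. Peak 10 had 3 copies of the 6-base TGATAA but no G after it, and peak 4 held neither of these words.

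The next windows show how unlike one another the distal peaks could be. Peaks 100 and 111 held 3 TGATAA words each and were among the 5 highest-ranked of the 16 members with 3 or more. Peaks 59 and 69 were among the 5 highest-ranked members with no WGATAR word at all.
Peak 100, 4087 bp upstream of F54F12.1, chrIII:13059479-13059579 (+ strand): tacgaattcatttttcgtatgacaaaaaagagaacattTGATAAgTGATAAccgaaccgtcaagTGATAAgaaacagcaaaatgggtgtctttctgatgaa
Peak 111, 4498 bp upstream of C52D10.3, chrIV:17171929-17172029 (+ strand): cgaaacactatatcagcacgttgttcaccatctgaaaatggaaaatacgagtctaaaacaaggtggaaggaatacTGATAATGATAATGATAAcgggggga
Peak 59, 2508 bp downstream of the 5′ end of ZK899.6, chrX:9465803-9465903 (+ strand): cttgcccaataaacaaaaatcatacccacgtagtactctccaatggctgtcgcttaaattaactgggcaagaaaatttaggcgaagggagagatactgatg
Peak 69, 1974 bp upstream of hif-1, chrV:20778383-20778483 (+ strand): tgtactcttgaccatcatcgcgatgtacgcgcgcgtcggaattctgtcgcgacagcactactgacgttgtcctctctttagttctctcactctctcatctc
In peak 111 the 3 words stood end to end. The base composition differed as well, with 33.7% G and C in peak 100 and 51.5% in peak 69.

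The signal of the distal peaks, as the authors' peak caller gave it, ran from 24.2 to 225.1 with a median of 31.3, and the other top peaks had a median of 30.1. Because signal chose the peaks, these values are a description. The share of distal intergenic peaks was 22.6% in the 2000 highest and 17.9% (5365) in all 30000 pooled peaks. The authors' thresholded list was made with the irreproducible discovery rate (IDR), which scores how well peak ranks match between replicates. It held 163 of the distal peaks (36.1%), and 34.1% of all 2000 were in it. Among the distal peaks it held every one down to peak 681 and none from peak 686 on. For the members its share therefore restates pooled rank and is no separate measure of agreement between replicates. The last members inside the limit were peaks 1993 and 1996, both with a signal of 24.2, and the first eligible peaks outside it, 2001 and 2002, also had 24.2. Peak 1993 ranked 767, 790 and 23776 in replicates 1, 2 and 3, and peak 2002 ranked 650, 17272 and 26940, so the limit separates no distinct class.

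The strongest members stood high in every replicate. Peak 1 (chrIV:13919321-13919485) ranked 2, 1 and 1 in replicates 1, 2 and 3. Peak 4 (chrV:5821892-5821970), in the 13695 bp between ZC250.4 and let-418, which encodes a Mi-2 chromatin remodelling ATPase, ranked 7, 4 and 2. Peak 6 (chrII:240108-240397) ranked 17, 6 and 3. It lay between laat-1, which encodes a lysosomal amino acid transporter, and scc-2, which encodes a cohesin loader. Peaks 10 (chrIII:154238-154527, near zig-13) and 12 (chrV:18346129-18346418, near C08E8.3) ranked 9, 15 and 20, and 12, 13 and 37.

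Below these the replicates diverged. Peak 25 (chrII:2378748-2379037), beside F16G10.6, ranked 11, 639 and 260. Peak 32 (chrV:17721815-17722104) ranked 243, 169 and 5, and lay between str-77, a chemoreceptor-family gene, and fat-5, a fatty acid desaturase gene. Peak 34 (chrIII:1279199-1279488), between the F-box genes fbxa-30 and fbxa-37, ranked 168, 39 and 21. Peak 44 (chrII:6026725-6027014), beside R12C12.9, ranked 26, 99 and 675. On chromosome I, peak 39, beside T06D10.3, ranked 36, 198 and 213, and peak 53, upstream of C45E1.4, ranked 16, 6110 and 155. The remaining member of the highest 12, peak 38 on X, is described with the X chromosome.

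Over all members the replicates contributed unequally. A peak among the 2000 highest of the replicate covered at least 50% of the pooled peak for 279 members in replicate 1 (61.7%, 95% exact binomial interval 57.1 to 66.2), beside 59.5% of all 2000. It did so for 260 members in replicate 2 (57.5%, 52.8 to 62.1), beside 52% of all 2000, and for 96 in replicate 3 (21.2%, 17.6 to 25.3), beside 25.2% of all 2000. The mean was 46.8% ± 22.3 for the distal peaks and 45.2% ± 16.8 for the other top peaks (SD, n = 3 replicates). Every replicate's reads also went into the pooled list, so these shares were not tested.

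The top lists of all 3 replicates held 46 distal peaks (10.2%). Those of 2 replicates held 149 (33%), that of 1 replicate held 199 (44.0%), and 58 (12.8%) were in no top list. The shares of the other 1548 top peaks were near these, at 11.3%, 29.3%, 43.1% and 16.3% in the same order. In the whole lists of 30000 peaks, 15, 37 and 158 members had no matching peak in replicates 1, 2 and 3. A match was found for 96.7%, 91.8% and 65.0% of members, beside 95.25%, 87.55% and 65.6% of all 2000. Replicate 3 thus lacked the most peaks, among the members and among all 2000 alike. The top list of replicate 1 or replicate 2 alone held 98 and 82 members, against 19 in that of replicate 3 alone.

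**Figure D1:**
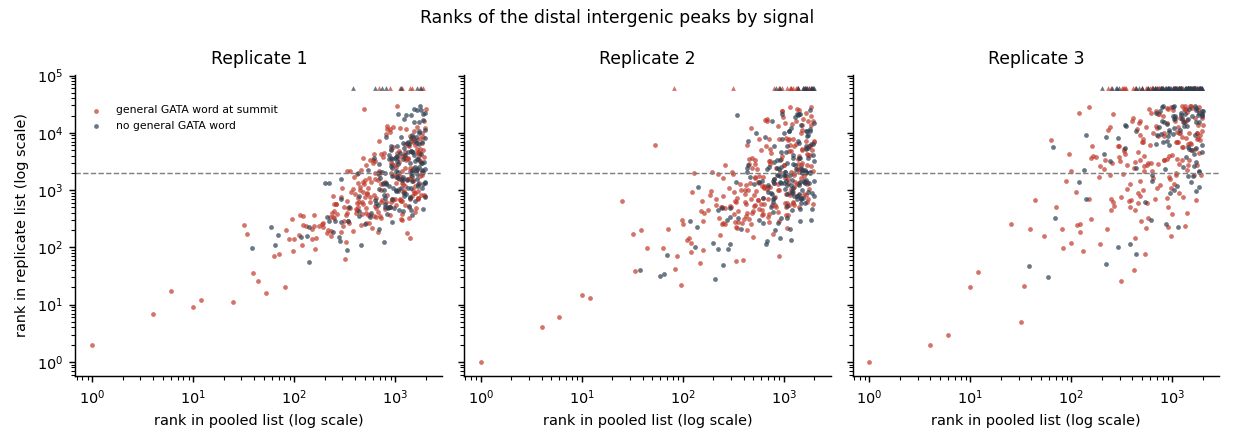
Each point is 1 of the 452 distal intergenic peaks, placed by its rank in the pooled list (horizontal, log scale) and in 1 replicate list (vertical, log scale), and coloured by whether a general GATA word (WGATAR) lay within 50 bp of the summit. The dashed line is rank 2000, triangles at the top are peaks with no match in that replicate (15, 37 and 158 in replicates 1, 2 and 3), and the scatter is widest in replicate 3.

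Sequence was not used to choose the peaks, and GATA words set their summits apart from the DNA beside them. TGATAAG lay within 50 bp of 130 of 452 distal summits (28.8%, 95% exact binomial interval 24.6 to 33.2) and in 4 windows of the same size 500 bp away (0.885%; adjusted p = 3.71e-34 in the exact McNemar test, over 7 words). The 6-base TGATAA was at 227 distal summits (50.2%) and 37 flanks (8.19%; exact McNemar test, adjusted p = 2.70e-40). WGATAR was at 276 summits (61.1%) and 90 flanks (19.9%; exact McNemar test, adjusted p = 3.71e-34).

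These shares were near those of the other strong peaks. TGATAAG was at 28.8% of distal summits and at 25.3% of the other 1548 summits, with 26.1% over all 2000 (odds ratio 1.19; adjusted p = 0.336, Fisher's exact test). TGATAA was at 50.2% of distal and 44.2% of other summits, with 45.5% over all 2000 (odds ratio 1.27; Fisher's exact test, p = 0.0242, adjusted p = 0.0848). WGATAR was at 61.1% of distal and 54.9% of other summits, with 56.3% over all 2000 (odds ratio 1.29; Fisher's exact test, p = 0.0206, adjusted p = 0.0848). No word passed the adjusted test between distal and other peaks. Among the 3000 highest pooled peaks TGATAAG did pass, at 24.8% of 625 distal summits and 19.7% of the others (Fisher's exact test, adjusted p = 0.0129).

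The words of other factors were rare. The E-box CACGTG, bound by basic helix-loop-helix factors, was at 19 distal summits (4.20%) and 5 flanks (1.11%; exact McNemar test, adjusted p = 0.0116), and at 4.20% of the other summits. The DAF-16 binding element, TGTTTAC, stood at 8 distal summits (1.77%) and 2 flanks (0.442%), which did not pass (adjusted p = 0.128, exact McNemar test). Neither reversed control word passed, GAATAGT with 0.885% at summits against 1.11% in flanks and the shorter AATAGT with 5.97% against 9.07% (adjusted p = 1 and 0.128, exact McNemar test).

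TGATAA gathered at the summit. In steps of 20 bp the distal peaks held 168.1 copies per 1000 peaks from the summit to 20 bp on its right, 146.0 in the step to its left, and 13.3 in each of the outermost steps, 480 to 500 bp away. Of the 227 members with the word within 50 bp, 120 (52.9%) had it within 20 bp of the summit and 161 (70.9%) within 30 bp, against 56.6% and 76.2% of the other top peaks with the word. A single copy was held by 150 distal peaks (33.2%), 2 copies by 61 (13.5%) and 3 or more by 16 (3.54%).

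**Figure D2:**
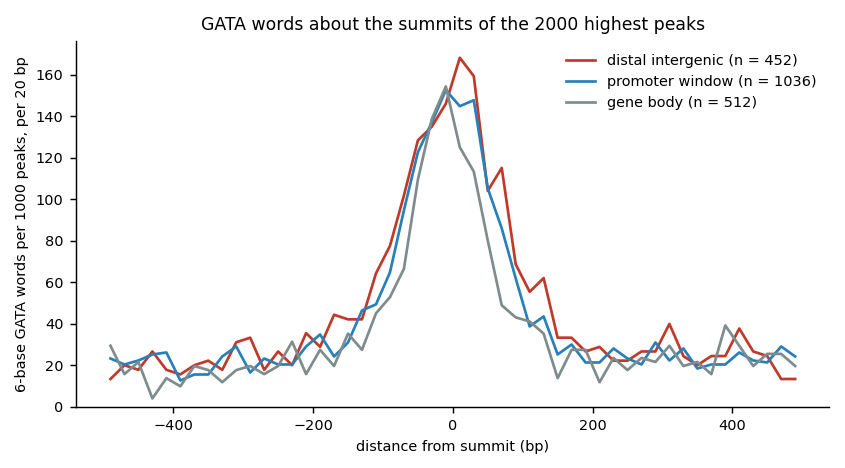
The lines give the number of TGATAA words on either strand per 1000 peaks in steps of 20 bp (vertical) against the distance of the word's centre from the summit (horizontal, bp), for 452 distal intergenic, 1036 promoter-window and 512 gene-body peaks. All 3 lines rise within about 100 bp of the summit. From 0 to 20 bp the distal, promoter-window and gene-body values are 168.1, 144.8 and 125.0. From -20 to 0 bp they are 146.0, 152.5 and 154.3.

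The share with a GATA word fell along the signal ranks of the distal peaks. TGATAAG was at 36.4% of the 121 members of ranks 1 to 500, at 33.1% of 118 members of ranks 501 to 1000, at 22.5% of 120 members of ranks 1001 to 1500 and at 21.5% of 93 members of ranks 1501 to 2000. WGATAR was at 76.9%, 61.0%, 54.2% and 49.5% in the same order. The other top peaks went through 38.5%, 31.2%, 17.9% and 14.3% for TGATAAG, and the intervals of distal and other peaks overlapped in every step.

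Members found in more replicates also held the word more often. TGATAAG was at 19.0% of the 58 distal peaks found in the top list of no replicate (95% exact binomial interval 9.87 to 31.4), at 25.1% of those found in 1, at 31.5% of those found in 2 and at 47.8% of the 46 found in all 3 (32.9 to 63.1). WGATAR was at 48.3%, 56.3%, 65.8% and 82.6%. The other top peaks rose in the same way, through 13.5%, 21.7%, 30.6% and 41.7% for TGATAAG. For WGATAR they went through 40.9%, 50.2%, 60.8% and 77.7%. Peaks in more top lists also have higher pooled signal, and the parts of signal and of agreement between replicates were not tested.

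**Figure D3:**
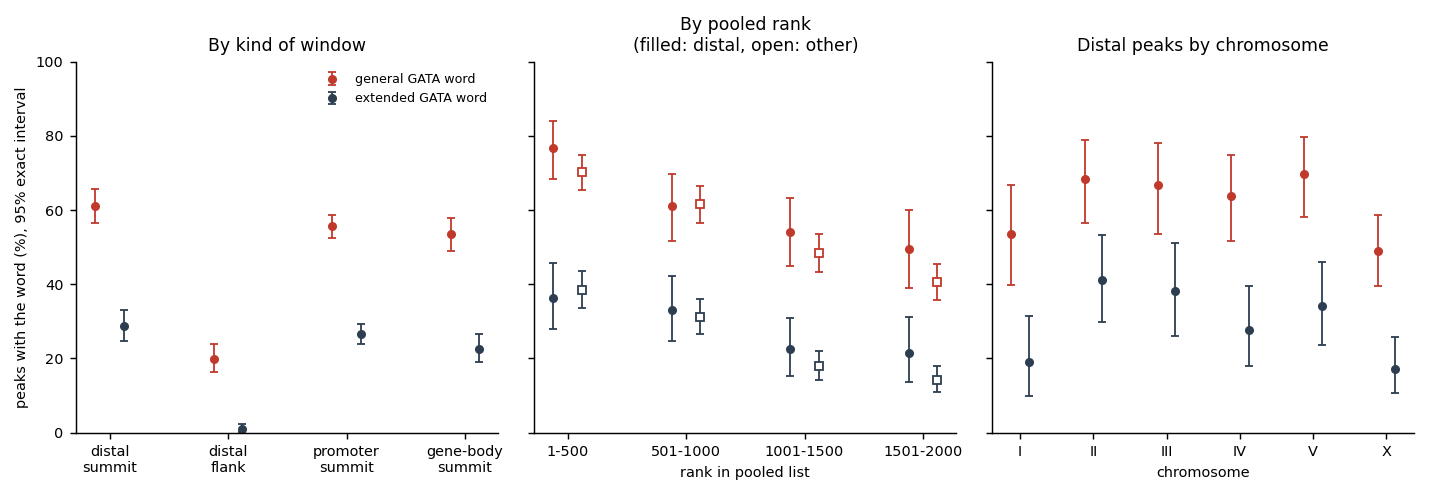
Points are the percentage of peaks with the general GATA word (WGATAR) or the extended GATA word (TGATAAG) within 50 bp, with 95% exact binomial intervals: by kind of window (left), by rank in the pooled list for distal (filled) and other peaks (open) (middle), and by chromosome for the distal peaks (right). Distal summits stand at 61.1% and 28.8%, their flanks at 19.9% and 0.885%, and the shares fall with rank in both classes of peak.

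A search over all possible 6-base words, each counted with its reverse complement, was made without reference to known motifs. At an adjusted p under 0.05, 92 words (4.42%) were more frequent at distal summits than at their flanks and 89 were less frequent (exact McNemar test). Of the 8 with the lowest adjusted p, TGATAA and GATAAG are parts of the extended GATA word, and CTGATA and ATAAGA overlap it. GATAAC has a C where that word has its last G, and the others were A/T-rich. GATAAG was at 34.7% of summits and 1.99% of flanks (adjusted p = 1.90e-34, exact McNemar test), CTGATA at 27.9% and 4.42%, ATAAGA at 24.1% and 3.98%, and GATAAC at 21.9% and 3.32%. With TGATAA these were the 5 of the 8 that were higher at summits, and 4 of these 5 contain GATA.

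The 3 of the 8 that were lower at summits were rich in A and T. TTAAAA was at 12.6% of summits and 38.1% of flanks (adjusted p = 1.44e-16, exact McNemar test), AAAATA at 17.5% and 43.4%, and TAAAAA at 17% and 40.7%. The summits had a median G and C content of 38.6% against 31.7% in the flanks, and it was higher at the summit in 318 of 452 members. The called words followed it, with a mean G and C content of 50% in those that were higher and 13.9% in those that were lower. Of the 92, 12 contain GATA and 80 do not. With a flank 1000 bp away 53 words were higher, and in the 60, 63 and 164 members found by both replicates other than 1, 2 or 3, the counts were 3, 3 and 23.

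No 6-base word separated distal from other strong peaks. Of all 6-base words, 0 (0%) passed an adjusted p of 0.05 between the 452 distal and the 1548 other summits (Fisher's exact test), and 99 had an unadjusted p under 0.05, 48 of them higher in distal peaks. The lowest p was that of CAACGA, at 2.21% of distal and 6.14% of other summits (Fisher's exact test, p = 0.000474, adjusted p = 0.523).

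Other words were found at the summits without WGATAR. Of the 452 members, 176 (38.9%) held no WGATAR. In these GAGAGA was at 53 summits (30.1%) and 9 flanks (5.11%; exact McNemar test, adjusted p = 2.72e-07 over all 6-base words), and at 31 summits (11.2%) and 11 flanks (3.99%) of the 276 with WGATAR. Over all members it was at 18.6%, against 14.3% of other top peaks. CTGCGC was at 15 summits without WGATAR (8.52%) and at 0 of their flanks (exact McNemar test, adjusted p = 0.00846). It was at 5 summits with WGATAR (1.81%) and 4 of their flanks. Over all members CTGCGC was at 4.42%, against 2.91% of other top peaks. In the members without WGATAR, 43 6-base words had an adjusted p under 0.05 between summit and flank, higher or lower. The differences between members without and with WGATAR were not tested. The members without WGATAR had a median pooled rank of 1083 and a median G and C content of 42.6%, against 755 and 37.6% in those with it. The top list of replicate 3 held 13.1% of members without the word and 26.4% of those with it. In replicates 1 and 2 the shares without and with it were 52.8% and 67.4%, and 55.1% and 59.1%. This division of the members, and the words named in it, were chosen after their values were seen.

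The 5 highest members without WGATAR were peaks 38, 59 and 65 on X, 69 on V and 118 on II. Peak 59 (chrX:9465708-9465997), between ZK899.6 and gap-2, a gene for a Ras GTPase-activating protein, ranked 229, 31 and 30 in replicates 1, 2 and 3. Peak 69 (chrV:20778288-20778577), upstream of hif-1, which encodes the hypoxia-inducible factor, ranked 164, 73 and 328. Peak 118 (chrII:5201973-5202262) lay 1204 bp upstream of ampd-1, an AMP deaminase gene, and ranked 151, 283 and 1376. These 3 members were in the top lists of all replicates, so these 3 peaks without the word were found in each replicate.

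The X chromosome held 110 members, and these carried GATA words less often than the 342 on the autosomes. WGATAR was at 49.1% of distal summits on X and 64.9% on autosomes (odds ratio 0.521; adjusted p = 0.0140, Fisher's exact test over 12 tests). TGATAA was at 35.5% and 55.0% (odds ratio 0.450; adjusted p = 0.00518, Fisher's exact test), and TGATAAG at 17.3% and 32.5% (odds ratio 0.435; adjusted p = 0.0140, Fisher's exact test). The other top peaks had WGATAR at 57.0% on X and 54.4% on autosomes (Fisher's exact test, adjusted p = 0.745). They had TGATAA at 43.0% and 44.5% (adjusted p = 0.927) and TGATAAG at 21.5% and 26.1% (adjusted p = 0.280), so these 2 words also had lower shares on X there, but neither passed Fisher's exact test. The difference between distal and other peaks in this contrast passed for TGATAA and WGATAR (likelihood ratio test of the interaction in a logistic model, n = 2000 peaks, adjusted p = 0.00662 for both over 3 words) and not for TGATAAG (adjusted p = 0.0642). X was not alone in a low share. Chromosome I had TGATAAG at 19.0% and WGATAR at 53.4% of its 58 members, while chromosomes II, III, IV and V had TGATAAG at 41.1%, 38.1%, 27.8% and 34.2%.

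The split by chromosome was made after the values were seen, and its p-values describe these peaks. Distal peaks on X had a median pooled rank of 1006, against 904 on autosomes. In the IDR list, which followed pooled rank among the members, were 29.1% of them, against 38.3%. Their flanks had WGATAR at 22.7%, against 19.0% on autosomes. The part of lower signal in the difference was not tested.

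Several of the strongest X members without WGATAR shared another word. GCGCAGGG, noticed when their windows were read, lay within 50 bp of 6 of 110 distal summits on X (5.45%, 95% exact binomial interval 2.03 to 11.5) and of 1 of 342 on autosomes (0.292%, 0.00740 to 1.62). The flanks of all 452 held it 0 times. As background, it is part of the motif known from the recruitment sites of the dosage compensation complex, which binds the X chromosomes of hermaphrodite worms. The windows are shown in the orientation that reads GCGCAGGG, which is in capitals, with 12 bases on either side, again from WBcel235.
Peak 38, between W04G3.11 and W02H3.3, chrX:11094214-11094245 (- strand): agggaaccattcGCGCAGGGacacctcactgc
Peak 65, between F20B6.9 and hpk-1, chrX:4209254-4209285 (- strand): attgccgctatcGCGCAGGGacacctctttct
Peak 209, between C34D10.1 and xol-1, chrX:8036389-8036420 (- strand): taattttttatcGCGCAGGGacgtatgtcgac
Peak 251, between gtr-1 and F25E2.2, chrX:806662-806693 (+ strand): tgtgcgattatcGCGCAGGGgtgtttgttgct
Peak 739, between lgc-40 and T24D8.6, chrX:2364887-2364918 (- strand): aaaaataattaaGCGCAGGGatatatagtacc
Peak 1003, between F20B6.9 and hpk-1, chrX:4208727-4208758 (+ strand): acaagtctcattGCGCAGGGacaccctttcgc
Peak 905, between clec-85 and Y54G2A.16, chrIV:2855556-2855587 (- strand): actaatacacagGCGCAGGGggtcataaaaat
None of the 6 X members held WGATAR, and the autosomal one did. In peaks 65, 209 and 251 the bases just before GCGCAGGG read TATC, the reverse complement of GATA. A C in place of A or T keeps these from being WGATAR words. Peaks 209 and 251 held CGATAA there, which was at 48 distal summits (10.6%) and 12 flanks (2.65%; exact McNemar test, adjusted p = 0.000147). Because the word was chosen from these peaks, it was given no test of its own. Its first 6 bases are the reverse complement of CTGCGC, one of the 6-base words tested above, and these 6 X peaks are among the 15 members without WGATAR that held CTGCGC.

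The word itself is found on every nuclear chromosome. It occurs 81 times on X (4.57 per Mb) and 233 times on the autosomes (2.82 per Mb). Sequence where a distal peak could lie holds 32 of the X copies, and 7, 13, 5, 12 and 11 on chromosomes I to V. Such sequence spans 5.19 Mb on X and 2.51, 3.09, 2.49, 4.46 and 4.05 Mb on I to V. Of all 2000 top peaks 13 held the word, 10 of them on X, so 4 of those 10 lay in promoter windows or gene bodies. The 6 distal X peaks ranked unevenly in the replicates. Peak 38 (chrX:11094041-11094330) ranked 97, 41 and 48 in replicates 1, 2 and 3. Peak 65 (chrX:4209156-4209445), beside hpk-1, a homeodomain-interacting protein kinase gene, ranked 108, 34 and 5661.

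Peak 209 (chrX:8036271-8036560), 4897 bp upstream of xol-1, the switch gene of sex determination, ranked 340, 28 and 4194. Peak 251 (chrX:806499-806788) ranked 293 and 50 in replicates 1 and 2 and had no match in replicate 3. Peak 739 had no match in replicate 1 and ranked 510 and 12654 in replicates 2 and 3, and peak 1003 ranked 3596, 9926 and 9488. Replicate 2 gave the best rank of 5 of the 6, and peak 38 alone was in all 3 top lists.

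Placement between genes was described per Mb of sequence that the rule allows, which was 21.8 of 100.3 Mb (21.7%). The density was 20.7 members per Mb overall. It was 25.3, 23.6, 23.1, 21.2, 18.8 and 16.1 per Mb on chromosomes III, II, I, X, V and IV. The low value of IV went with its piRNA clusters, which the rule leaves in the allowed sequence: the parts of IV from 4.5 to 7 Mb and from 13.5 to 17.5 Mb, which hold 2816 and 11563 of its 14714 annotated piRNA genes, had 11.3 members per Mb (26), and the rest of IV had 21.2 (46). Peak 1 itself lay in the second of these parts, with 22 piRNA genes starting within 5000 bp of its summit.

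Many members were close to the promoter limit. The median distance to the nearest protein-coding 5′ end was 2211 bp, and 200 members (44.2%) were under 2000 bp away. To the nearest end, 5′ or 3′, of a protein-coding gene the median was 1673 bp. Peak 10 was 6 bp from zig-13 by that measure. Density was 31.1 per Mb at 1001 to 1499 bp, 21.9 at 1500 to 1999 bp, 16.8 at 3000 to 4999 bp and 8.98 at 10000 bp and beyond (7 members). The summit lay upstream of the nearest 5′ end in 332 members (73.5%), where 66.0% of the allowed sequence does. Density was 20.8 per Mb between divergent genes (141 members), 22.4 between genes in the same direction (261) and 14.6 between convergent genes (49).

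GATA words were present both near to and far from 5′ ends. TGATAAG was at 30.6% of the 252 members at 2000 bp or more and at 26.5% of those closer, and WGATAR at 59.9% and 62.5%. By gene orientation TGATAAG was at 36.2% of members between divergent genes, 26.8% between genes in the same direction and 18.4% (9 of 49) between convergent genes. WGATAR was at 63.8%, 61.3% and 53.1% in the same order. These differences were not tested.

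**Figure D4:**
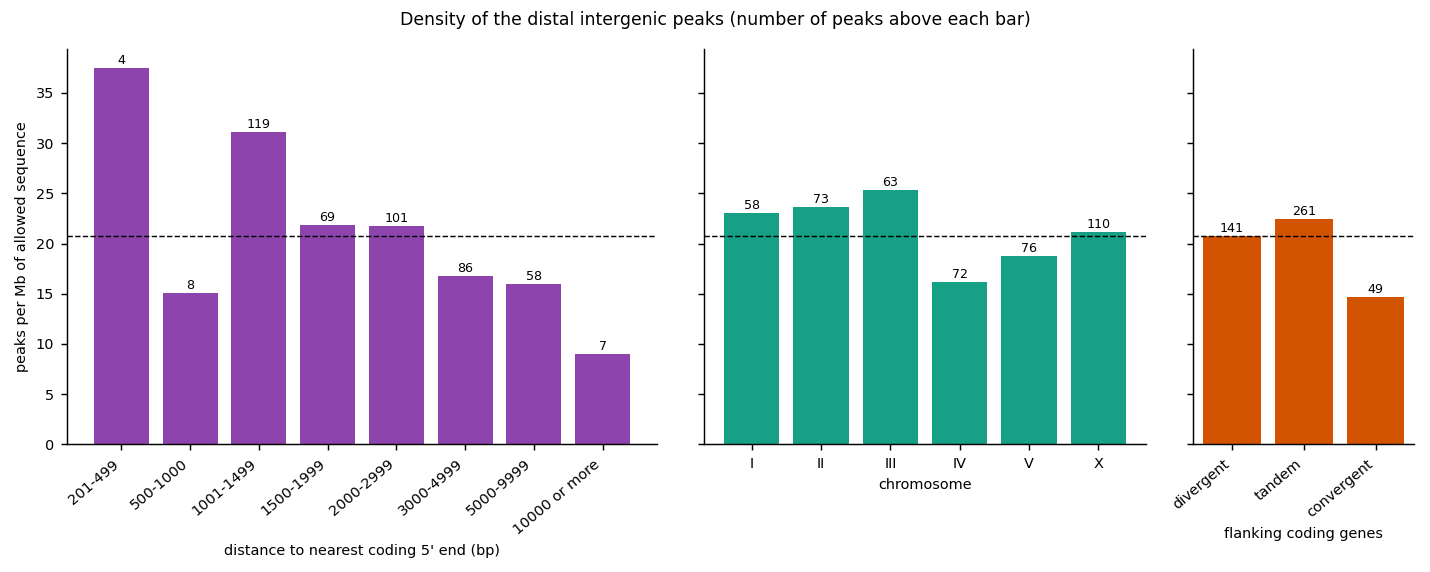
Bars give the number of distal intergenic peaks per Mb of sequence that the rule allows, by distance to the nearest protein-coding 5′ end (left, bp), by chromosome (middle) and by the direction of the flanking protein-coding genes (right). The dashed line is the value over all allowed sequence, 20.7 per Mb, and the number above each bar is the count of peaks. Density was 31.1 per Mb at 1001 to 1499 bp and 8.98 at 10000 bp and beyond, and the first 2 bars hold 4 and 8 peaks only.

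The 5 members farthest from any protein-coding 5′ end lay in long intergenic stretches. Peak 95 (chrIV:14594264-14594553) was 13370 bp upstream of irld-18, in a stretch of 35563 bp that ends at dmd-6, and ranked 309, 22 and 4331 in replicates 1, 2 and 3. Peaks 1513 and 263 were 12985 and 11614 bp from the 5′ ends of C30G12.2 and C30G12.4 in 1 stretch of 26771 bp on II. Peak 753 was 12282 bp from K01F9.2 on III, and peak 1641 was 10708 bp from emc-1, an endoplasmic reticulum membrane complex gene, on II. Peaks 95, 263, 753 and 1513 held TGATAA, and peak 1641 held no WGATAR.

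Distal peaks came in groups in some stretches. The 452 members lay in 403 intergenic stretches, of which 362 held 1 member, 34 held 2 and 7 held 3 or more. Another of the 2000 highest peaks lay within 5000 bp for 36.9% of distal peaks, 28% of promoter-window peaks and 37.5% of gene-body peaks, with 32.5% over all 2000. The stretch with the most members was on X between got-2.2, an aspartate aminotransferase gene, and W05H9.4, with 4 over 6333 bp, ranked from 828 to 1465. The stretch between ZC250.4 and let-418 held 3 over 1861 bp, peaks 4, 535 and 1965, all with WGATAR.

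The stretch between F20B6.9 and hpk-1 on X, 3085 bp long, held 3 members over 1560 bp and none with WGATAR, peaks 65, 1003 and 1516. Between dpy-1, a cuticle gene, and M01E10.3 on III there were 3, peaks 239, 562 and 1906, and between T19H5.4 and gcy-3, a guanylyl cyclase gene, on II there were 3, peaks 428, 1679 and 1755. All 6 of these held WGATAR. Of the 22 members in the 7 stretches of 3 or more, peak 4 had the highest signal, at 145.1, and peak 65 the next, at 66.8.

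**Figure D5:**
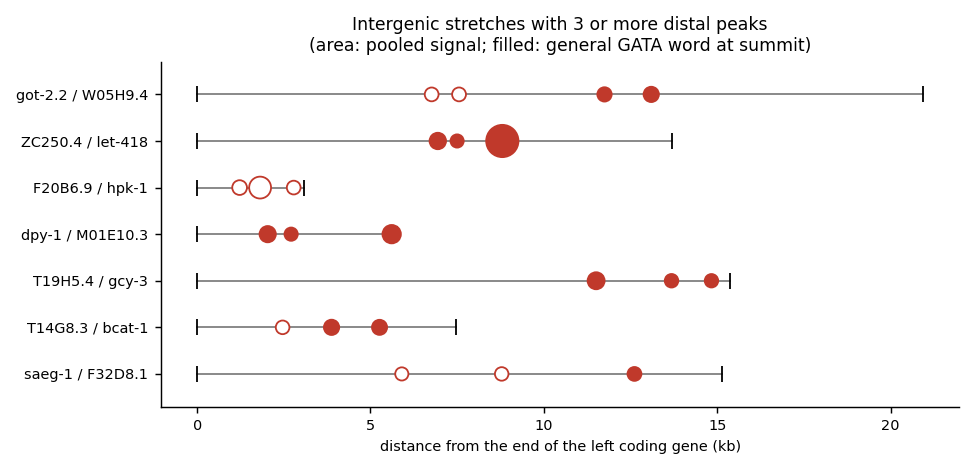
Each line is an intergenic stretch with 3 or more distal intergenic peaks, drawn to scale from the end of the left protein-coding gene (0 kb) to the start of the right one. Circles are peaks with area in proportion to pooled signal, filled where WGATAR lay within 50 bp of the summit. All 3 peaks in the stretches of ZC250.4, dpy-1 and T19H5.4 are filled, and all 3 beside hpk-1 are open.

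The protein-coding genes on either side of the members were counted by group, as a description. Over all 19865 protein-coding genes, 790 (3.98%) flanked a distal peak. Of 24 annotated stress and nutrient transcription factor genes 7 did (29.2%). The highest of these were hif-1 (peak 69), mdl-1, a MAD-like gene (peak 410, with 3 WGATAR words), daf-12, the steroid hormone receptor gene of dauer and developmental timing (peak 801), and hsf-1, the heat shock factor gene (peak 1027). The hif-1 peak was in all 3 top lists. The daf-12 peak lay 5307 bp upstream of daf-12 and closer, at 1794 bp, to M79.2 on its other side. It had no match in replicates 2 and 3, and the hsf-1 peak had none in replicate 3.

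Of 12 annotated GATA factor genes elt-2 and egl-27 flanked a member (16.7%). The elt-2 peak (peak 436, chrX:10479440-10479729) lay 1655 bp upstream, held 3 WGATAR words and no TGATAAG, and ranked 616 and 201 in replicates 1 and 2 with no match in replicate 3. The egl-27 peak (peak 893) was 10376 bp upstream and held no WGATAR. Of 19 annotated intestine markers 4 flanked a member (21.1%). They were ifb-2, an intestinal intermediate filament gene (peak 63), pgp-1, a P-glycoprotein gene (peak 621), eps-8, a gene of the microvillus (peak 839), and asp-1, an aspartyl protease gene (peak 1231). The ifb-2 peak (chrII:5748447-5748736) lay 1596 bp upstream and ranked 71, 96 and 7437, and that of eps-8 ranked 377 in replicate 1 and had no match in the others.

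The other short lists gave counts of 0 to 3. The heterochronic list had 3 of 10 (30%), lin-41, daf-12 and lin-14, which is the highest share of any list. Of these, daf-12 is also counted in the stress and nutrient list, by the same peak. The pharynx list had 1 of 10 (10%), tbx-2, the neuron list 2 of 21 (9.52%), unc-3 and ttx-3, whose peaks ranked 1344 and 1728, and the insulin and FOXO pathway list 1 of 13 (7.69%), pdk-1. Of 17 epidermis and seam genes, 10 body muscle genes and 21 Wnt, Notch and Hox genes, 0 flanked a member. These lists are short, and the counts were not tested against the 3.98% of all genes. A flanking gene is not shown to be the target.

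Gene families differed in the same count. Of 269 nuclear hormone receptor genes 27 (10%) flanked a member, led by nhr-31 and nhr-258 on either side of peak 114, nhr-45 (peak 140) and nhr-41 (peak 151). Peak 151 (chrIV:1379040-1379329) lay 7030 bp upstream of nhr-41, held 3 TGATAA words and ranked 139, 436 and 686. Saposin, lysozyme and protease genes had 6 of 72 (8.33%), among them asp-13, spp-10, asp-6 and asp-19. Chemoreceptor genes, which often lie in tight clusters, had 8 of 1272 (0.629%), among them str-77, srj-29, srw-60 and sre-44.

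The remaining families were near or below the 3.98% of all genes. F-box genes had 4 of 315 (1.27%; fbxa-30, fbxa-37, fbxa-141 and fbxa-163), C-type lectin genes 4 of 237 (1.69%; clec-162, clec-85, clec-180 and clec-182) and ceh homeobox genes 1 of 63 (1.59%; ceh-37). Collagen genes had 4 of 156 (2.56%; col-185, col-105, col-181 and col-118), ribosomal protein genes 2 of 78 (2.56%; rps-28 and rpl-35) and insulin-like peptide genes 1 of 39 (2.56%; ins-8). Neuropeptide genes had 3 of 102 (2.94%; nlp-40, nlp-46 and nlp-67). Genes with long intergenic flanks offer more allowed sequence, and the part of flank length in these shares was not tested.

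Some members lay beside microRNA genes, which the rule treats as gene bodies but not as promoters. A total of 9 members (1.99%) had the summit within 2000 bp of 1 of 8 miRNA genes, out of 261 annotated. The share was 1.61% of the other top peaks, with 1.7% over all 2000, and 1.25% of the allowed sequence lay as close, so the members' share was near the background. The 5 highest were peaks 156, 416, 430, 514 and 753. Both members beside mir-60, a miRNA of the intestine, are shown, because they lie on either side of the gene. Capitals mark WGATAR words.
Peak 416, 1189 bp downstream of mir-60, chrII:6327463-6327563 (+ strand): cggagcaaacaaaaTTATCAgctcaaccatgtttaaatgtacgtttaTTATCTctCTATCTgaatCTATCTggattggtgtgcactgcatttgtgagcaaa
Peak 430, 81 bp upstream of mir-60, chrII:6328830-6328930 (+ strand): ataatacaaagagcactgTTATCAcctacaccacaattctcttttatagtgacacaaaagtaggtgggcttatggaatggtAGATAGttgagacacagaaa
Peak 416 held 4 WGATAR words and peak 430 held 2. Peak 416 ranked 442, 990 and 2468 in replicates 1, 2 and 3, and peak 430 ranked 736, 6205 and 146. Both lie between sma-6, a TGF-beta receptor gene, and set-4, a histone methyltransferase gene, which converge on this stretch of 2482 bp.

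The 3 others of the 5 highest lay on III and X, and those of lower rank on II, IV and X. Peak 156 (chrIII:8868320-8868609) lay 1040 bp upstream of mir-238, held TGATAAG and ranked 237, 641 and 312, so all 3 top lists had it. Peak 753 (chrIII:8864701-8864990) lay 424 bp downstream of mir-80 in the same stretch between plg-1 and K01F9.2, and ranked 3757, 4385 and 1243. Peak 514 (chrX:13919665-13919954) lay 1440 bp upstream of mir-47, held TGATAAG and ranked 390, 2886 and 7937.

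Repeated sequence accounted for few members. At least 50% of the 30-base words of the summit window occurred elsewhere in the genome for 4 distal peaks (0.885%) and 10 other top peaks (0.646%; odds ratio 1.37; Fisher's exact test, p = 0.533). At least 50% of the window was soft-masked as repeat in 7.52% of distal and 7.56% of other peaks (Fisher's exact test, p = 1). Peaks 808, 1472, 1516 and 1720 were the 4 distal peaks, and the only members whose words had a median of more than 1 copy. Peak 1516, beside hpk-1, had the highest median, with 4 copies. Of these 4, 1 was in the top list of replicate 1, 1 in that of replicate 2 and 0 in that of replicate 3.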

How the data were processed

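PQM-1 ChIP-seq was done in L1 larvae with 3 biological replicates in 1 group. According to the README of each sample, the authors called peaks from the alignments of each replicate and from those of all 3 pooled. The relaxed lists hold 30000 peaks each, background included, and the IDR filter left 682 pooled peaks. Which aligner, peak caller and IDR cutoff were used is not given in the sources used here. The deposited signal of each peak is the caller's own value. Its scale is not shared by the lists, and it served only for ranks inside 1 list. Pooling means that a replicate with more reads can weigh more in the pooled rank. The lists on build ce10 were not used.

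Positions are on ce11, 1-based. Sequence came from RefSeq WBcel235, the same assembly, and genes from Ensembl release 115. The chromosome sequences were checked to reach the last peak end of the pooled list. The miRNA and piRNA genes are those of the annotation. Words on either strand were counted in windows reaching 50 bp to each side of the summit, and in flank windows centred 500 bp towards higher coordinates, and compared with the exact McNemar test between summit and flank and Fisher's exact test between peaks, both two-sided. The Benjamini-Hochberg adjustment was made over 7 words, over all 6-base words, over 12 tests on X or over 3 tests of the interaction with X. Distances to miRNA genes are to their nearest end, other distances to an annotated 5′ end unless the nearest gene end is named. Intervals are exact binomial at 95%. The p-values treat peaks as independent.

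The members, the 20 gene lists, the words and the tests were chosen with earlier results of these data known. The peaks named were the 12 highest, the 2 on either side of the limit, the 5 farthest from a 5′ end, those of the 5 fullest stretches, the 5 with the most TGATAA (ties by rank), the 5 highest without WGATAR, the 5 highest near a miRNA and the 4 with a median of more than 1 copy, since all others tie at 1. Also named were the 4 highest of each gene list and the 8 6-base words with the lowest adjusted p. The word GCGCAGGG, the repeat word GAGAGA, the word CTGCGC, the word CAACGA and the split by chromosome were chosen after the values were seen. Of the listed genes elt-5, opt-2 and atf-5 have no protein-coding entry of that name in the annotation, and let-7, lin-4, mir-48, mir-84 and mir-241 are not protein-coding.

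The word and 6-base word tests were tested on simulated data. Tests ran in SciPy 1.17.1 and statsmodels 0.14.6 under Python 3.11.15, with numpy 2.4.6, pandas 2.3.3 and, for figures, matplotlib 3.10.9.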

Additional observations from a re-analysis of the deposited data

How the results depend on the processing

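TGATAAG stayed above the flank in all 14 alternatives, by 13.1 percentage points in windows of 25 bp to 46.7 points without replicate 1, beside 27.9 as reported. Here, without a replicate means that only peaks in the top lists of both others were kept. The pooled ranks still held the reads of the named replicate. The excess over other top peaks, 3.50 points as reported, was 5.14 points and past the threshold in the 3000 highest peaks. It turned to -0.0946 in the 1000 highest, -0.113 in the IDR list and -1.71 in windows of 25 bp, none past the threshold. Without 1 replicate it was 0.901 to 8.33. The count of 6-base words above the flank, 92, was 41 in the 1000 highest, 25 in the IDR list, 43 with a promoter window of 2000 bp, 31 and 185 in windows of 25 and 100 bp, 53 with a flank 1000 bp away and 3 to 23 without 1 replicate. Smaller sets of peaks and shorter windows hold fewer words, so their counts are lower by construction in part. The count of words differing from other top peaks was 1 in the 3000 highest and 0 otherwise.

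The repeat difference, 0.239 points, did not pass under any of its 11 alternatives. It was -0.239 in the 1000 highest, -0.385 in the IDR list, -0.0760 for any repeated 30-base word, -0.166 for 50-base words and -0.978 to 0 without 1 replicate. The mean share found in replicates, 46.8%, was 71.2% in the IDR list and 84.5% when all 30000 peaks of a replicate counted. Restricting members to peaks found in both other replicates gives 100% there by construction, so the mean of the remaining replicates was used instead, chosen after seeing the data, and gave 39.4% to 59.6%. Requiring the top lists of both replicates other than 1, 2 or 3 left 60, 63 and 164 members. The number of members was 163 in the IDR list, which were those with the highest pooled signal, and 287 with the wider promoter window. No paired analysis was possible because all samples belong to a single group. Depth is unknown, so a peak missing from replicate 3 is not shown to be unbound there.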
